A study of Mus musculus with 8 samples.

Results

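The 10 genes described here act in MHC class I antigen presentation and were followed across RNA-seq libraries from mouse embryonic fibroblasts, which are connective tissue cells grown from embryos. They were chosen by name: the heavy chain genes H2-K1 and H2-D1, the light chain gene B2m, the peptide transporter genes Tap1 and Tap2, the loading factor gene Tapbp, the immunoproteasome genes Psmb8, Psmb9 and Psmb10, and the class I regulator gene Nlrc5. These are 10 of the 55358 genes in the data, and all 10 were expressed above the level required for testing. The groups were Arid5a-/- fibroblasts (KO) with 100 ng/ml interleukin 6 (IL-6) for 24 h, KO fibroblasts without it, wild type (WT) fibroblasts with IL-6 and WT fibroblasts without it. Each group had 2 libraries (n = 2 throughout), and the labels call the cells only mouse embryonic fibroblasts, with no embryo age, strain or clone given. The series was made to find long noncoding RNAs under IL-6 and Arid5a, an RNA-binding protein known to stabilize selected inflammatory transcripts.

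MHC class I molecules show peptides from inside the cell to cytotoxic T cells. Proteasomes cut proteins into peptides, the TAP transporter carries these into the endoplasmic reticulum (ER), and a loading complex places them on a heavy chain paired with beta-2 microglobulin. Interferons raise most of these genes, exchange the constitutive proteasome subunits for immunoproteasome subunits, and induce NLRC5, which drives class I promoters through a shared upstream module. Fibroblasts carry class I molecules at rest.

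The promoters of the heavy chain and light chain genes are printed first, because they carry the elements through which interferon and NF-kappaB factors are known to act on class I genes, while Tap1 and Tapbp stand for members without both elements. The windows are RefSeq sequences on GRCm38.p6, from 250 bases before to 50 bases after the RefSeq start site, written 5′ to 3′ on the strand of the gene. Capitals mark matches, on either strand, to an IRF core (AANNGAAA), the NF-kappaB consensus, a CRE core (TGACG) and a CCAAT box (CCAAT). The H2-K1 window is chr17:34000298-34000597 (minus strand), H2-D1 is chr17:35262844-35263143 (plus), B2m is chr2:122147437-122147736 (plus), Tap1 is chr17:34187306-34187605 (plus) and Tapbp is chr17:33919228-33919527 (plus).
H2-K1: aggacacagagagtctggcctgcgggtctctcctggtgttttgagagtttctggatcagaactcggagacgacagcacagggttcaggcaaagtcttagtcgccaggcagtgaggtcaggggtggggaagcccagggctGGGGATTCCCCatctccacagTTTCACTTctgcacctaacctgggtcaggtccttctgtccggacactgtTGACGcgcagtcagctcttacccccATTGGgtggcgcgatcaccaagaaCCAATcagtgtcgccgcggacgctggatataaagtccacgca
H2-D1: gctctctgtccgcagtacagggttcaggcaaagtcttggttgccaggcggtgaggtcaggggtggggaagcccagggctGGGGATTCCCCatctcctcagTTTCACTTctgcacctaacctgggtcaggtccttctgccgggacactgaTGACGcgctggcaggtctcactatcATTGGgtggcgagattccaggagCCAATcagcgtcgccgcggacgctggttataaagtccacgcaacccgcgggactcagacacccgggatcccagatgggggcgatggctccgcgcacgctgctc
B2m: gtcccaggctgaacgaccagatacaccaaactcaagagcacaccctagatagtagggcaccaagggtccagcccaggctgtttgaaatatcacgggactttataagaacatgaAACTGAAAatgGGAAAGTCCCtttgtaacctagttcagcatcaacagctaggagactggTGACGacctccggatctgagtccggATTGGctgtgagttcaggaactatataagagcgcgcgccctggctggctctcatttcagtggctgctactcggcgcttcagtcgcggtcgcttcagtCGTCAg
Tap1: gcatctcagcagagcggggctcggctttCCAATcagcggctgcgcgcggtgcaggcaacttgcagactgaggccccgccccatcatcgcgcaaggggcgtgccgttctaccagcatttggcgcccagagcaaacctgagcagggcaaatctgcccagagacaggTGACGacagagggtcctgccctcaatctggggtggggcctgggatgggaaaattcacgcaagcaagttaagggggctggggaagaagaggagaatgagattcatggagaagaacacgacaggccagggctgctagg
Tapbp: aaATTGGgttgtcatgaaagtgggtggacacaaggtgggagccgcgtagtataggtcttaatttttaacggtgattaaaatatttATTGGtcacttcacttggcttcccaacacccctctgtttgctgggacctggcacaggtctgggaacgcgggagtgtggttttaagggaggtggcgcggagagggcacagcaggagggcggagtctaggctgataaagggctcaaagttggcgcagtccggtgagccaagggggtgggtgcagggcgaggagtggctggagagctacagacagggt

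Windows were in the table for 8 of the 10 members: the 5 shown and Psmb8, Psmb9 and Psmb10. RefSeq starts can differ from the GENCODE gene bounds given with each gene: Tapbp starts at 33919478 in RefSeq and 33915899 in GENCODE, and H2-D1 at 35263094 and 35262730. The H2-K1 and H2-D1 windows shared 214 of 239 aligned bases (89.5%). Both hold the NF-kappaB consensus, the IRF core, the CRE core and 2 CCAAT boxes in the same order, but nearer to the annotated start in H2-K1: the IRF core spans -90 to -83 there and -150 to -143 in H2-D1. H2-K1 was listed with 2 RefSeq windows, and the one starting nearest its GENCODE bound was used. All H2-K1 distances given here depend on that choice of start. The palindromic NF-kappaB match of both genes is read in 4 overlapping ways and is 1 site. In B2m the IRF core (-137 to -130) precedes the NF-kappaB match (-126 to -117). The IRF core was found in 3 of 8 members and in 23.9% of the 32817 windows of all genes, and the NF-kappaB consensus in the same 3 members and in 8.46% of windows. The CRE core was in 5 of 8 members (20.8% of windows), the CCAAT box in 6 (37.4%), and the letters of a TATA box (TATAAA), not capitalised, in 4 (13.6%). The TATAAA match lay at -26 to -21 in H2-D1, after the start at 36 to 41 in H2-K1, at -152 to -147 on the opposite strand in B2m, and at -237 to -232 in Psmb8. Windows with all of the first 4 motifs made up 0.110% of the total (36 windows of 35 genes). Those 35 genes included H2-K1, H2-D1 and B2m, and 8 of the 35 were H2 genes, a count made after the windows had been seen. The Tap1 and Psmb9 windows overlap by 275 bases, since the genes start 226 bases apart on opposite strands, so their CRE core and CCAAT box are the same letters. A match in these windows describes the letters and does not show binding.

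**Figure D1:**
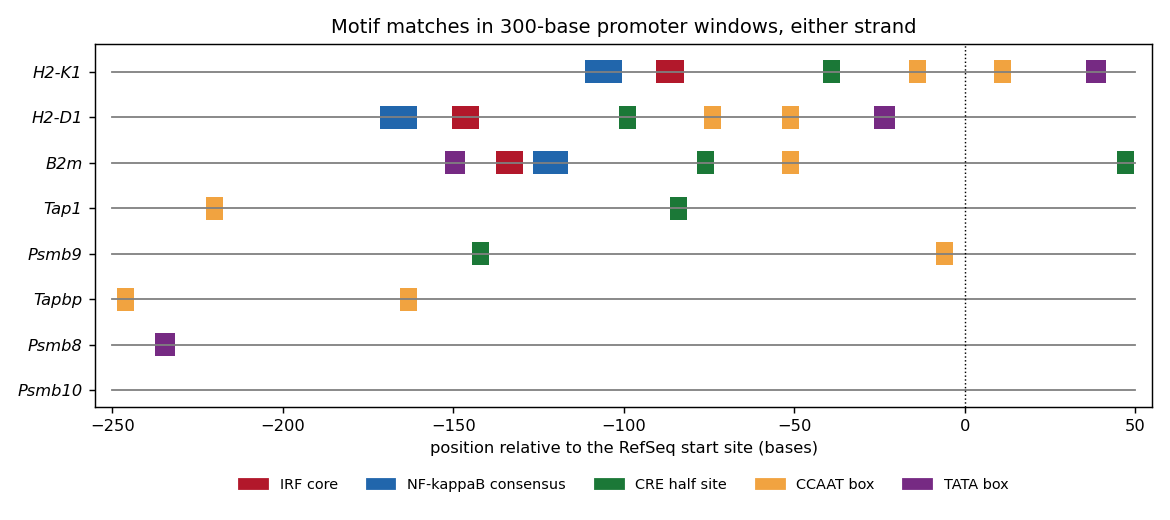
Positions of motif matches (coloured blocks, either strand) in the promoter windows of 8 class I genes, with the distance from the RefSeq start site in bases on the x axis. H2-K1, H2-D1 and B2m hold an IRF core and an NF-kappaB match, and the other 5 windows hold neither.

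Values are FPKM, fragments scaled to transcript length and to the depth of the library, summed over the transcripts of a gene, so levels can be compared between genes. Low values lay on steps of whole fragments that put the depth at 37.2 M to 46.9 M fragments per library, and 12570 to 12699 genes reached 1 FPKM. Libraries of a group correlated at 0.9927 to 0.9935 across genes. The labels do not say whether a group's 2 libraries were grown as separate cultures. The p-values therefore rest on library-to-library spread that may be technical. Arid5a itself was at 8.47 and 8.15 FPKM in IL-6-treated KO, 5.51 and 6.85 in untreated KO, 30.9 and 31.0 in IL-6-treated WT, and 18.7 and 15.9 in untreated WT. It was lower in KO without IL-6 (log2 difference -1.35 ± 0.10, limma adjusted p = 1.32e-05) and with it (-1.78 ± 0.10, adjusted p = 2.67e-06), and not absent.

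The genotypes differed far beyond Arid5a. Without IL-6, 71.0% of the 13693 genes tested passed at an adjusted p below 0.05 between KO and WT, and with IL-6 71.7% did. Cell type markers differed as well. All 6 mesothelial markers were higher in KO, with a summed level of 1593 to 1649 FPKM in the KO libraries and 38.3 to 52.7 in the WT libraries, and Wt1 was listed at 0 in all 4 WT libraries. Epithelial markers summed to 82.3 to 87.2 FPKM in KO libraries and 1.15 to 1.69 in WT libraries. Most of the KO sum was Krt14 (65.1 ± 1.22 FPKM, SD, in untreated KO), and Krt8, Krt18 and Cdh1 also stood higher. Epcam was alike in untreated KO and WT (0.627 ± 0.0132 and 0.625 ± 0.0524), and Krt5 was listed at 0 in every library. Endothelial markers summed to 10.8 to 12.05 FPKM in KO and 0.0764 to 0.181 in WT. The KO sum was almost all Tek and Kdr, while Pecam1, Cdh5 and Emcn reached at most 0.105 FPKM in any library. The 10 fibroblast markers summed to 4134 to 4349 FPKM in KO and 5936 to 6638 in WT. The lower fibroblast sum in KO came mainly from S100a4, at 1054 ± 58.3 FPKM in untreated KO and 5025 ± 105 in untreated WT (SD), while Col1a1 (1034 ± 35.1 against 561 ± 5.597), Col3a1 (845 ± 0.152 against 198 ± 1.80) and Dcn (794 ± 15.4 against 166 ± 12.7) were higher in KO. Less abundant markers were lower in KO: Pdgfrb (7.19 ± 0.305 against 49.5 ± 1.11), Pdgfra (8.11 ± 0.704 against 35.8 ± 3.70), Lum (0.273 ± 0.0680 against 3.35 ± 0.219) and Thy1 (0.499 ± 0.120 against 2.73 ± 0.173). Of 9 fibroblast markers tested without IL-6, 5 were lower and 3 higher (median -1.32), against 34.5% and 36.4% of all genes. The 8 macrophage markers summed to 3.74 to 5.16 FPKM in KO libraries and 18.9 to 35.8 in WT libraries, mostly Cd14, while Adgre1 was listed at 0 in every library and Ptprc and Itgam did not pass 0.0171 FPKM. The 7 MHC class II markers summed to 14.1 to 15.2 FPKM in KO and 16.5 to 18.9 in WT, from opposite differences. Of these, H2-DMb1 was higher in untreated KO (11.2 ± 0.249 against 1.76 ± 0.127 FPKM in untreated WT), and H2-Ab1 (0.260 ± 9.53e-05 against 3.65 ± 1.01), Cd74 (0.901 ± 0.0262 against 4.42 ± 0.601) and H2-DMa (2.17 ± 0.182 against 7.75 ± 0.671) were lower. Lymphocyte markers summed to at most 0.0667 FPKM. The part of these differences in the class I values was not tested. The genotype and the origin of the cells cannot be told apart here, nor, in bulk RNA, fewer cells of a type from less RNA per cell.

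In untreated KO the order of levels ran from B2m (2362 ± 50.4 FPKM, SD) through H2-K1 (985 ± 64.8), H2-D1 (445 ± 31.6), Tapbp (263 ± 9.91), Psmb10 (49.7 ± 1.64), Psmb8 (42.0 ± 2.58), Tap1 (32.6 ± 0.277), Tap2 (12.8 ± 0.353) and Nlrc5 (12.5 ± 0.129) to Psmb9 (9.46 ± 0.464). No neighbours in this order overlapped between libraries. In untreated WT the same 7 genes led in the same order, from B2m (3016 ± 123) to Tap1 (81.8 ± 1.64), but Psmb9 (41.3 ± 2.14) and Nlrc5 (29.2 ± 0.628) stood above Tap2 (26.8 ± 2.61). Of neighbours in this order, Psmb10 and Psmb8 overlapped between libraries. With IL-6, Tap2 and Nlrc5 overlapped in KO, and so did Psmb9 with Nlrc5 and Nlrc5 with Tap2 in WT. Among all genes by mean level, B2m ranked 6 in untreated KO and 7 in untreated WT, while Psmb9 ranked 7980 in KO and 2634 in WT. Together the 10 genes made up 0.704 to 0.826% of a library's summed FPKM in IL-6-treated KO, 0.763 to 0.801% in untreated KO, 0.761 to 0.912% in IL-6-treated WT and 1.09 to 1.14% in untreated WT.

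**Figure D2:**
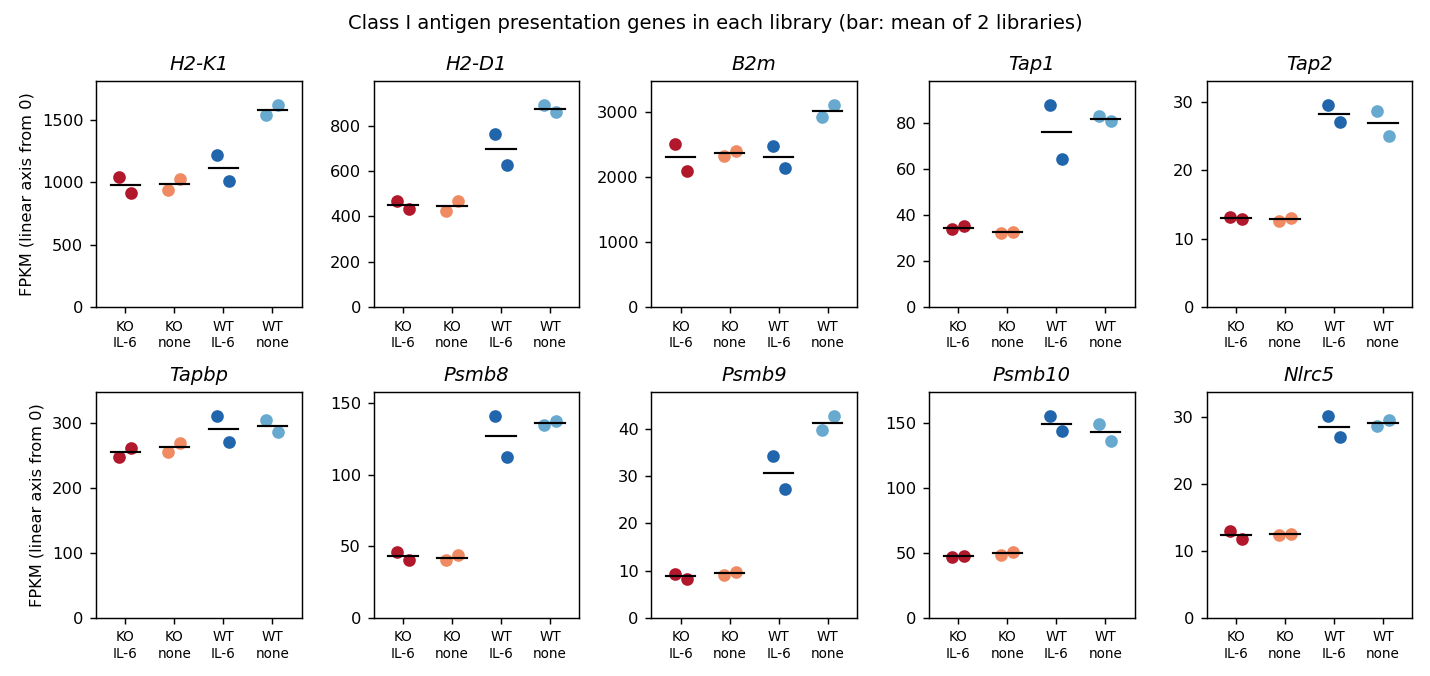
FPKM (y axes, linear from 0) of the 10 class I genes in the 2 libraries of each group (points, library 1 left) with the group mean (bar). The 3 immunoproteasome genes, Tap1, Tap2, Nlrc5, H2-D1 and, narrowly, Tapbp sit lower in all 4 KO libraries than in all 4 WT libraries. B2m and H2-K1 are high only in untreated WT.

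KO fibroblasts held less class I pathway RNA than WT fibroblasts without IL-6. The largest differences were those of the immunoproteasome genes, whose KO levels were 22.9 to 34.7% of WT, followed by Tap1, Nlrc5, Tap2 and H2-D1 at 39.8 to 50.8%. H2-K1 (62.3%), B2m (78.3%) and Tapbp (89.0%) differed less. On the log2(FPKM + 1) scale, which understates the fold of low genes, 9 of the 10 members were lower in KO (limma, Benjamini-Hochberg adjusted p below 0.05 over all genes tested), and 34.5% of all genes were. The members' median difference was -1.09, against 0.0069 over all genes. KO and WT libraries did not overlap for any of the 10, as for 85.0% of all genes.

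Psmb8 (chromosome 17, 34197721 to 34201454, plus strand; GRCm38 here and below) encodes the immunoproteasome subunit that replaces the chymotrypsin-like Psmb5. It stood at 45.8 and 40.3 FPKM in IL-6-treated KO, 40.2 and 43.8 in untreated KO, 141 and 113 in IL-6-treated WT, and 135 and 138 in untreated WT. Every KO library lay below every WT library. Its KO against WT difference was -1.67 ± 0.11 (SE) without IL-6 (adjusted p = 5.07e-06), and -1.53 ± 0.11 under IL-6 (adjusted p = 7.94e-06).

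Psmb9 (chromosome 17, 34181987 to 34187764, minus strand), the counterpart of Psmb6, had the widest gap of the 10. It was at 9.28 and 8.30 FPKM in IL-6-treated KO, 9.14 and 9.79 in untreated KO, 34.3 and 27.2 in IL-6-treated WT, and 39.7 and 42.8 in untreated WT. The groups of the 2 genotypes were far apart in both conditions, and within WT both libraries with IL-6 lay under both without it. The KO against WT difference was -2.01 ± 0.11 without IL-6 (adjusted p = 1.81e-06) and -1.69 ± 0.11 under IL-6 (adjusted p = 4.5e-06). Psmb10 (chromosome 8, 105935735 to 105938444, minus strand), the counterpart of Psmb7, lies outside the MHC and was also lower in KO. Its levels were 46.9 and 47.9 FPKM in IL-6-treated KO, 48.5 and 50.8 in untreated KO, 156 and 144 in IL-6-treated WT, and 149.7 and 136 in untreated WT. The genotypes were again far apart, with differences of -1.51 ± 0.059 without IL-6 (adjusted p = 3.33e-07) and -1.64 ± 0.059 under IL-6 (adjusted p = 1.98e-07).

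The constitutive partners differed less between genotypes than the immuno-subunits, so their ratio moved as well. Psmb5 was at 145 and 152 FPKM in untreated KO and 168 and 148 in untreated WT, a difference of -0.09 that did not pass (adjusted p = 0.273). Psmb6 likewise did not pass (-0.14, adjusted p = 0.0588), and Psmb7 was lower in KO (-0.59 ± 0.049, adjusted p = 2.15e-05). Psmb8 amounted to 30.6 and 26.0% of Psmb5 in IL-6-treated KO, 27.7 and 28.9% in untreated KO, 86.2 and 63.7% in IL-6-treated WT, and 80.1 and 93.1% in untreated WT. For Psmb9 over Psmb6 the means were 3.16 ± 0.392%, 3.37 ± 0.143%, 10.4 ± 2.46% and 13.3 ± 1.17% in the same order of groups. Psmb10 over Psmb7 gave 33.4 ± 1.65%, 35.9 ± 2.38%, 74.2 ± 7.98% and 68.6 ± 3.38%. KO and WT libraries did not overlap in any of the 3 ratios. Of single genes, 85.0% did not overlap between genotypes without IL-6 and 85.8% with it. The ratios were not tested in the fit across genes, and an exact permutation test of 2 libraries against 2 cannot go below p = 0.333.

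**Figure D3:**
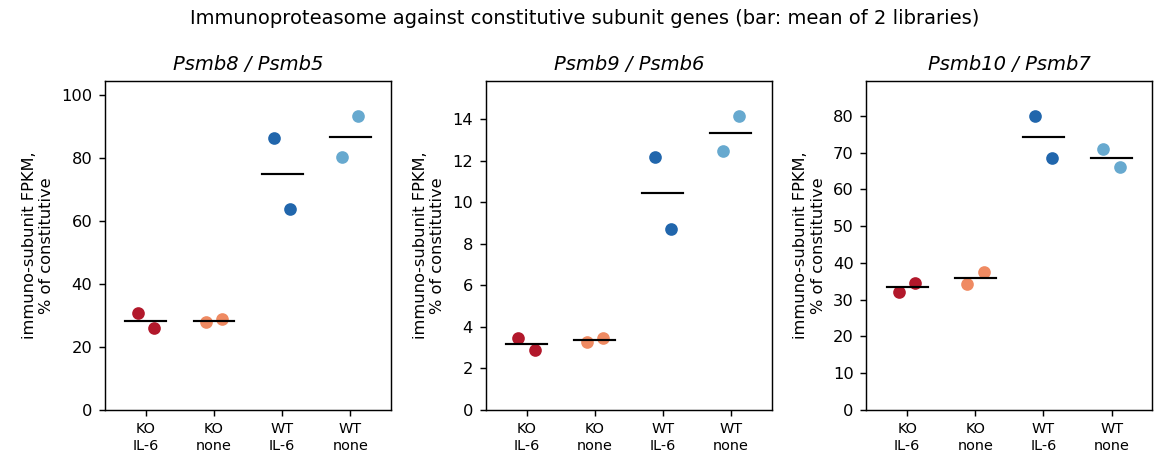
FPKM of an immunoproteasome gene as a percentage of its constitutive counterpart (y axes from 0) in the 2 libraries of each group (points) with the mean (bar). KO libraries lie below WT libraries in each panel, for example at 28.3% against 86.6% on average for Psmb8 over Psmb5 without IL-6.

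The transporter genes followed. Tap1 (chromosome 17, 34187553 to 34197225, plus strand), which encodes one chain of the peptide pump, was at 33.9 and 35.1 FPKM in IL-6-treated KO, 32.4 and 32.7 in untreated KO, 87.7 and 64.5 in IL-6-treated WT, and 82.96 and 80.6 in untreated WT. Its KO libraries were close together, and its WT libraries with IL-6 lay on either side of those without. The KO against WT difference was -1.30 ± 0.12 without IL-6 (adjusted p = 3.91e-05) and -1.10 ± 0.12 under IL-6 (adjusted p = 9.66e-05). Tap2 (chromosome 17, 34203527 to 34216321, plus strand), the other chain, was at 13.1 and 12.9 FPKM in IL-6-treated KO, 12.6 and 13.1 in untreated KO, 29.5 and 27.0 in IL-6-treated WT, and 28.7 and 24.99 in untreated WT. It differed by -1.01 ± 0.073 (adjusted p = 1.01e-05) and -1.06 ± 0.073 (adjusted p = 7.2e-06) in the same 2 comparisons. Both transporter genes thus stood lower in every KO library.

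Tapbp (chromosome 17, 33915899 to 33929292, plus strand) encodes tapasin, which bridges TAP and the heavy chain. It was at 248 and 262 FPKM in IL-6-treated KO, 256 and 269.6 in untreated KO, 311 and 271 in IL-6-treated WT, and 305 and 286 in untreated WT. Without IL-6 these are the closest genotype levels among the 10. The difference did not pass without IL-6 (-0.17 ± 0.071, adjusted p = 0.0664) and passed narrowly with it (-0.19 ± 0.071, adjusted p = 0.0449). The call with IL-6 ended in 13 of 18 alternatives (adjusted p 0.0536 to 0.372). Among these were leaving out any 1 library other than library 2 of WT with IL-6, quantile normalization (-0.07) and equal total FPKM (-0.09). The untreated difference passed when either WT library with IL-6 was left out (0.0243 and 0.0242) or only the 2 groups were fitted (0.0308).

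H2-K1 (chromosome 17, 33996017 to 34000347, minus strand) encodes the classical heavy chain H-2K. It was at 1047 and 915 FPKM in IL-6-treated KO, 939 and 1031 in untreated KO, 1221 and 1009.7 in IL-6-treated WT, and 1542 and 1619 in untreated WT. The 2 untreated WT libraries lay above the other 6, which overlapped between genotypes. H2-K1 was lower in KO without IL-6 (-0.68 ± 0.10, adjusted p = 0.000566), and with IL-6 its difference was -0.18 ± 0.10 (adjusted p = 0.145, 95% interval -0.42 to 0.06). Without library 2 of WT with IL-6 the comparison with IL-6 passed (-0.32, adjusted p = 0.0225).

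H2-D1 (chromosome 17, 35262730 to 35267499, plus strand), the other classical heavy chain gene, was lower in KO in both conditions. Its levels were 469 and 432 FPKM in IL-6-treated KO, 422 and 467 in untreated KO, 765 and 629 in IL-6-treated WT, and 890.4 and 861 in untreated WT. The groups fell into 3 tiers, with KO lowest, WT with IL-6 between and untreated WT highest. The differences were -0.98 ± 0.095 without IL-6 (adjusted p = 5.07e-05) and -0.62 ± 0.095 under IL-6 (adjusted p = 0.00062).

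B2m (chromosome 2, 122147686 to 122153083, plus strand) encodes the light chain common to all class I molecules. Its values were 2514 and 2094 FPKM in IL-6-treated KO, 2327 and 2398 in untreated KO, 2472 and 2139 in IL-6-treated WT, and 2929 and 3104 in untreated WT. As for H2-K1, only untreated WT stood apart. B2m was lower in KO without IL-6 (-0.35 ± 0.098, adjusted p = 0.0131). That call ended without untreated WT library 2 (adjusted p = 0.0731), without untreated KO library 1 (0.0624) or with no filter (0.0679), and the sign turned under quantile normalization (0.09, adjusted p = 0.484). With IL-6 no difference in B2m was detected (-0.0031 ± 0.098, adjusted p = 0.981, 95% interval -0.23 to 0.23). Here quantile normalization put B2m higher in KO (0.37, adjusted p = 0.0197), equal total FPKM gave 0.09 and median-ratio scaling 0.00036.

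Nlrc5 (chromosome 8, 94434356 to 94527272, plus strand), the transactivator of class I genes, was at 13.0 and 11.7 FPKM in IL-6-treated KO, 12.4 and 12.6 in untreated KO, 30.2 and 27.0 in IL-6-treated WT, and 28.7 and 29.6 in untreated WT. Its KO mean was 42.7% of WT without IL-6 and 43.2% with it. Its differences were -1.16 ± 0.068 without IL-6 (adjusted p = 3.03e-06) and -1.15 ± 0.068 under IL-6 (adjusted p = 3.11e-06).

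With IL-6, 8 of the 10 members were lower in KO, against 34.8% of all genes, and 0 higher, against 36.9%, and the libraries of 8 members did not overlap, against 85.8% of all genes. The members' median was -1.08, against 0.01 over all genes. The 2 comparisons of genotype share no library, but the fit takes each gene's spread from all 8 libraries. They also set the same 2 genotypes against each other, so they are not independent tests. Of the 10, 7 (H2-D1, Tap1, Tap2, Psmb8, Psmb9, Psmb10 and Nlrc5) passed as lower in KO with and without IL-6 in all 18 alternatives run, leaving out any 1 library included.

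**Figure D4:**
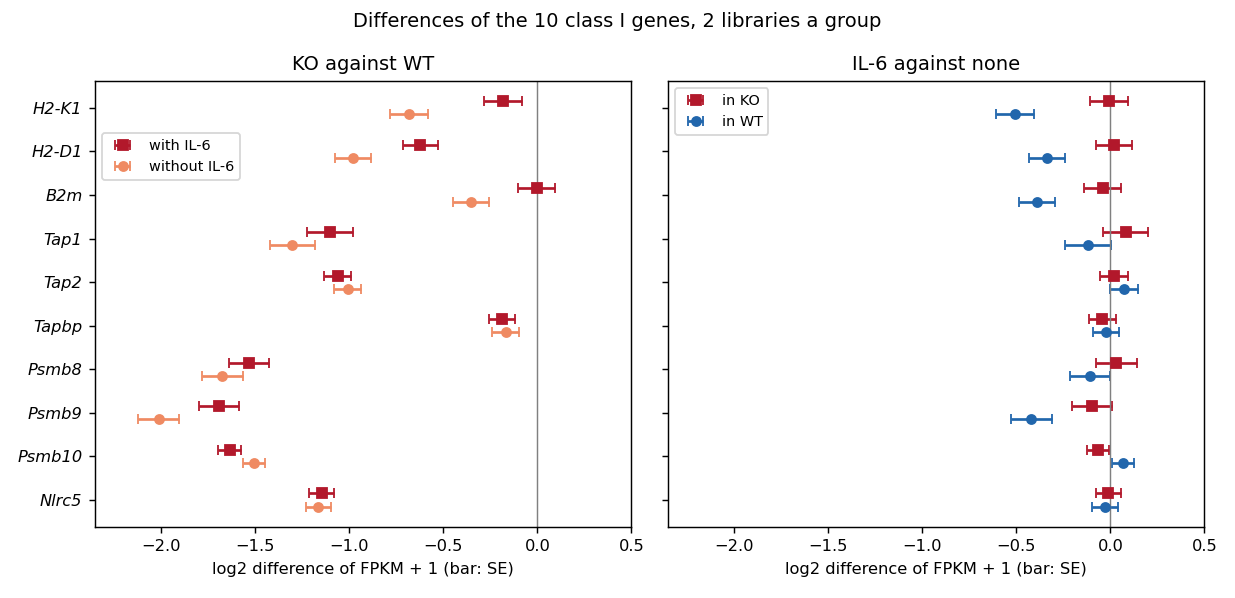
Log2 differences of FPKM + 1 (x axes) with their SE (bars) for the 10 class I genes, KO against WT on the left and IL-6 against none on the right. The genotype differences run to -2.01 (Psmb9), while the IL-6 differences in KO stay between -0.10 and 0.08 and those in WT reach -0.51 (H2-K1).

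IL-6 raised no class I member. In WT fibroblasts H2-K1 stood at 70.6% of its untreated level (-0.51 ± 0.10, adjusted p = 0.0163), Psmb9 at 74.6% (-0.42 ± 0.11, adjusted p = 0.0396) and B2m at 76.4% (-0.39 ± 0.098, adjusted p = 0.0366), and these 3 of 10 fell with IL-6. Of all genes, 7.41% fell and 15.7% passed in either direction. That split was 1136 higher and 1014 lower, and 813 higher and 1527 lower when libraries were scaled to equal total FPKM. H2-D1 was at 79.6% and did not pass (-0.34 ± 0.095, adjusted p = 0.0535), although its libraries with IL-6 lay below those without. The other 6 members were at 93.0 to 105% of their untreated levels. Libraries with and without IL-6 did not overlap for 4 members (H2-K1, H2-D1, B2m and Psmb9) and for 56.3% of all genes.

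These 3 calls rested on single libraries. Dropping either untreated WT library, or library 2 of IL-6-treated WT, left 0 members called, with adjusted p of 0.0583 (without library 1), 0.0884 (without library 2) and 0.066 for H2-K1. Leaving out library 1 of WT with IL-6 left 5 called, H2-D1 (-0.48, adjusted p = 0.0173) and Tap1 (-0.34, adjusted p = 0.0116) among them. The Psmb9 difference was -0.26 without library 2 of WT with IL-6. Without either untreated KO library 1 member was called (H2-K1). No filter or a fit of only the WT groups left 0 (H2-K1 at 0.072 and 0.081). All 10 members were lower in library 2 than in library 1 of WT with IL-6, at 73.6 to 92.3% of it, whereas in untreated WT 5 were higher in each library. A shift of all 10 also occurred in untreated KO, where library 2 was higher, at 101 to 111% of library 1. In IL-6-treated KO 7 were higher in library 1 and 3 in library 2.

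In KO fibroblasts no member passed with IL-6 and none had an unadjusted p below 0.05. The differences ran from -0.10 (Psmb9) to 0.08 (Tap1), and the 95% intervals reached from -0.35 to 0.36. Few genes passed at all, 0.0219% of those tested, with 1025 genes at an unadjusted p below 0.05. The 2 KO groups did not overlap for Tap1 and Psmb10, as for 38.3% of all genes.

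The difference between the IL-6 responses, KO minus WT, did not pass for any member, while 6.06% of all genes passed (2.54% higher and 3.52% lower; 348 and 482 genes, or 477 and 389 at equal total FPKM). At an unadjusted p below 0.05 stood H2-K1 (0.50 ± 0.14, adjusted p = 0.0965), H2-D1 (0.36 ± 0.13, adjusted p = 0.182) and B2m (0.35 ± 0.14, adjusted p = 0.203). The falls of H2-K1, B2m and Psmb9 in WT are therefore not shown to be particular to WT. Without library 1 of WT with IL-6, Tap1 passed this test (0.42, adjusted p = 0.0257).

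Transcripts of the heavy chain genes did not all carry the genotype difference alike. The long H2-D1-202 averaged 335 ± 15.2 FPKM in untreated KO and 549 ± 1.46 in untreated WT (60.9%), while the short H2-D1-201 of 406 nt averaged 109 ± 16.5 and 323 ± 18.5 (33.6%). For H2-K1, the coding H2-K1-201 was at 467 ± 34.3 FPKM in untreated KO and 773 ± 35.4 in untreated WT (60.4%), and the retained-intron transcript of 457 nt, which made up 31.4% and 30.6% of the gene, was at 63.9% of WT. The retained-intron Tap2-202 made up 74.1% of Tap2 in untreated KO and 78.3% in untreated WT. The main coding transcripts Psmb8-203 (31.0% of untreated WT in untreated KO), Psmb10-201 (31.1%) and the Nlrc5 transcript of 53 exons (42.1%) were at or somewhat below the ratios of their genes (30.9, 34.7 and 42.7%). Psmb9-204 was also slightly below (22.2% against 22.9% for the gene). The coding transcripts Tap2-201 (57.0%), Tap1-206 (45.4%) and Tapbp-206 (90.8%) were above the ratios of their genes (47.8, 39.8 and 89.0%). Tap2-202 was at 45.2%. How fragments were split among transcripts is the authors' estimate, so these shares are given as description.

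Near-identical copies limit the heavy chain values. Of the 50-nt windows of the main transcript, 8.79% in H2-K1 and 14.3% in H2-D1 occur exactly in other genes, 109 of them in both. Tap1 and Psmb9 overlap on opposite strands and share 163 such windows (12.5% of those of Psmb9), and fragments there cannot be assigned where the counting ignored strand, which the sources used here do not state. For Tap2, Tapbp and Psmb8 the shares were 17.6, 11.6 and 11.6%, and B2m, Psmb10 and Nlrc5 share none.

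Non-classical class I genes were mostly lower in KO as well. Of 23 such and class I-like genes listed, 18 were tested, and without IL-6 11 were lower and 3 higher in KO, with a median of -0.62 (with IL-6, 11, 3 and -0.57). Of all genes, 34.5% were lower and 36.4% higher without IL-6, and 34.8% and 36.9% with it. H2-Q6 (-3.16 ± 0.12, adjusted p = 2.43e-07) and H2-Q7 (-2.45 ± 0.12, adjusted p = 9.64e-07), Qa-2 antigen genes, were lower. H2-Q6 averaged 18.4 ± 0.0349 FPKM in untreated KO and 173 ± 0.199 in untreated WT. The same direction held for H2-T23, which encodes Qa-1 (47.4 ± 2.88 against 184 ± 4.80 FPKM, -1.93 ± 0.099), and for H2-Q4 (128 ± 5.34 against 379.7 ± 2.92 FPKM, -1.56 ± 0.084), both named after their values were seen. The Q-region genes are close copies, so fragments may be split among them. The 3 that were higher were class I-like genes, but other class I-like genes went the other way. Raet1d (7.15 ± 0.582 against 15.6 ± 1.03 FPKM), Hfe (2.67 ± 0.422 against 5.69 ± 2.07) and Fcgrt (42.9 ± 1.85 against 53.6 ± 0.553) had lower means in untreated KO than in untreated WT. Raet1d, Hfe and Fcgrt were named after their values were seen. Not all heavy chain genes had lower means in untreated KO than in untreated WT. Examples, also named after their values were seen, were H2-M3 (5.56 ± 0.124 against 5.28 ± 0.386 FPKM), H2-T24 (1.88 ± 0.0589 against 1.75 ± 0.212) and H2-Q1 (1.27 ± 0.144 against 1.11 ± 0.592). Ulbp1, a stress ligand of the receptor NKG2D, averaged 40.9 ± 1.38 FPKM in untreated KO and 0.178 ± 0.00134 in untreated WT (5.15 ± 0.087, adjusted p = 4.44e-09), Mr1, which presents microbial metabolites, 7.48 ± 0.0605 and 0.416 ± 0.0867 (2.58 ± 0.077, adjusted p = 7.82e-08), and Cd1d1, which presents lipids, 12.8 ± 0.208 and 3.18 ± 0.586 (1.73 ± 0.096, adjusted p = 2.25e-06). For genes so low in WT the log2 difference depended on the pseudocount: over the alternatives it ran from 3.15 to 7.20 for Ulbp1 and from 1.204 to 3.88 for Mr1, with both passing throughout.

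Summed over 29 class I heavy chain genes, the level was 1739 ± 136 FPKM in IL-6-treated KO, 1742 ± 108 in untreated KO, 2751 ± 387 in IL-6-treated WT and 3572 ± 13.0 in untreated WT. H2-K1 made up 55.7 to 57.0% of this sum in the KO libraries and 40.4 to 45.2% in the WT libraries, while H2-D1 made up 25.3 to 26.3% and 24.1 to 25.4%. B2m stood at 1.27 to 1.40 times the summed heavy chains in KO libraries and 0.817 to 0.867 times in WT libraries. None of these ranges for H2-K1 or B2m overlapped between genotypes, as 85.0% of single genes did not without IL-6 and 85.8% with it.

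**Figure D5:**
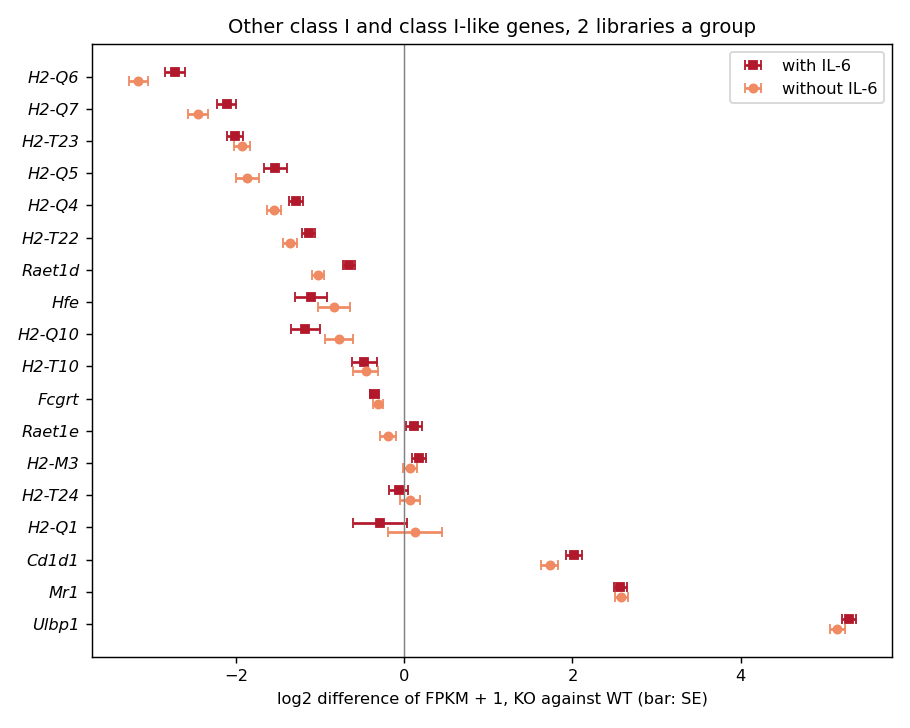
Log2 difference of FPKM + 1, KO against WT (x axis), with its SE (bars) for 18 other class I and class I-like genes, with and without IL-6. Most heavy chain genes lie left of 0, down to -3.16 for H2-Q6, while Cd1d1, Mr1 and Ulbp1 lie right of it, up to 5.29 with IL-6.

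Other genes of the pathway were split. Of 10 genes of peptide supply, 5 were lower and 2 higher in KO without IL-6 (4 and 2 with it), and the median was -0.21. Of all genes, 34.5% were lower and 36.4% higher without IL-6, so the number called is near that of genes at large. Psmb7, Lap3, a trimming peptidase (-0.41 ± 0.042, adjusted p = 7.55e-05), and the PA28 activator gene Psme2 (-0.36 ± 0.038, adjusted p = 8.53e-05) were lower, and Psme3, the nuclear PA28 relative, was higher (0.45 ± 0.065, adjusted p = 0.000472). The others that passed were Psme1 (-0.28) and the trimming enzyme gene Erap1 (-0.40), both lower, and the peptidase gene Tpp2 (0.22), higher. Of 6 genes of ER loading, 4 were higher and 1 lower in KO in both conditions. The chaperone genes Pdia3 (462 ± 1.01 FPKM in untreated KO, 337 ± 10.8 in untreated WT; 0.45 ± 0.035), Calr (0.49 ± 0.047) and Hspa5 (0.34 ± 0.033) and Canx (0.36 ± 0.053) were higher, and Tapbpl, a peptide editor related to tapasin, was lower (9.20 ± 0.357 against 15.4 ± 1.13 FPKM; -0.68 ± 0.075). These 4 chaperones serve many other proteins of the ER.

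Of 18 tested regulators of class I transcription, 8 were lower and 6 higher in KO without IL-6, and 10 and 6 with it. These counts stand beside 34.5% of all genes lower and 36.4% higher without IL-6, and 34.8% and 36.9% with it. The interferon signal gene Stat2 was at 58.4 ± 0.524 FPKM in untreated KO and 184 ± 16.6 in untreated WT (-1.63 ± 0.094, adjusted p = 2.81e-06), and Irf1, a factor that binds class I promoters, at 39.6 ± 0.399 and 77.5 ± 0.516 (-0.95 ± 0.054, adjusted p = 2.5e-06). Nfkb1, which encodes p50 of NF-kappaB, was lower too (-0.80 ± 0.038, adjusted p = 9.24e-07), while Ezh2, a histone methyltransferase that represses, was higher (46.2 ± 0.634 against 20.6 ± 0.981 FPKM; 1.13 ± 0.051, adjusted p = 7.43e-07). Other regulator genes, named after their values were seen, went both ways in untreated KO against untreated WT. Means were higher for Nfya (34.1 ± 0.162 against 17.5 ± 0.796 FPKM), Irf3 (38.1 ± 1.62 against 19.95 ± 2.90), Rfxank (11.9 ± 0.463 against 6.18 ± 0.945), Rfxap (25.4 ± 1.83 against 17.6 ± 0.750) and Creb1 (13.1 ± 0.0306 against 8.74 ± 0.0735). Means were lower for Rfx5 (10.2 ± 0.519 against 17.3 ± 0.0212) and Nfyb (15.4 ± 0.166 against 24.0 ± 1.99). Of 9 tested genes of interferon receptors and signalling, 5 were lower and 2 higher without IL-6, and 6 lower with it. These included the kinase gene Jak1 (34.5 ± 0.261 against 62.0 ± 0.747 FPKM; -0.83 ± 0.035), the feedback inhibitor gene Socs1 (0.846 ± 0.0644 against 5.203 ± 0.330 FPKM; -1.75 ± 0.094), the interferon gamma receptor gene Ifngr1 (-0.56 ± 0.048) and the phosphatase gene Ptpn2 (-0.52 ± 0.049), and also Ifnar1 (-0.39), while Jak2 (0.18) and Ifngr2 (0.27) were the 2 higher. The Socs1 difference ran from -2.49 to -0.80 over the alternatives. Ifng, the interferon gamma gene, was listed at 0 in all 8 libraries.

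With IL-6 in WT the regulators split: 4 rose and 3 fell of 18. Of all genes, 8.30% rose and 7.41% fell, which also stands beside the counts of the other lists below. Nfkb1 rose (0.36 ± 0.038, adjusted p = 0.00101) to 74.4 ± 0.506 FPKM, against 57.6 ± 0.986 in untreated WT. Rela (0.26 ± 0.050) and Irf1 (0.28 ± 0.054) also rose, but these calls ended without untreated WT library 2 (0.0687 for Rela, 0.0703 for Irf1). Single losses of other WT libraries ended them as well, at 0.0771 for Rela without library 2 of WT with IL-6, 0.0594 for Irf1 without untreated WT library 1, and 0.0607 for Irf1 without library 1 of WT with IL-6. Further regulators called, named after their values were seen and not tried under the alternatives, were Nr2f2, which rose (0.39), and Irf7 (-0.42) and Nfya (-0.24), which fell. Of interferon signalling genes 4 of 9 rose, among them Jak1 (0.33 ± 0.035, adjusted p = 0.00111), Ifnar2, an interferon alpha receptor chain (0.46 ± 0.054, adjusted p = 0.00157), and Ptpn2 (0.33 ± 0.049, adjusted p = 0.00453). The other was Jak2 (0.25 ± 0.057, adjusted p = 0.0254), whose call ended without untreated WT library 1 (0.11) or 2 (0.0558) or library 1 of IL-6-treated WT (0.115). Of the other class I genes H2-Q6 (-0.56 ± 0.12, adjusted p = 0.019) and Cd1d1 (-0.36 ± 0.096, adjusted p = 0.0457) fell. The H2-Q6 call ended without untreated WT library 1 (0.0778) or 2 (0.084), or library 2 of IL-6-treated WT (0.066). The Cd1d1 call ended in 12 of 18 alternatives (0.0526 to 0.17). Of peptide supply Lap3 rose (0.20 ± 0.042, adjusted p = 0.0188), but lost its call when any one of the 4 WT libraries was dropped (0.0708 to 0.0873). No ER loading gene passed.

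The IL-6 responses of KO and WT differed for Nfkb1 (-0.43 ± 0.054, adjusted p = 0.00551), which passed in every alternative run. Jak1 (-0.29 ± 0.050, adjusted p = 0.0177), Ifnar2 (-0.40 ± 0.076, adjusted p = 0.0275) and Ptpn2 (-0.35 ± 0.069, adjusted p = 0.0321) passed as well. Leaving out a single library ended the call of Jak1 and of Ifnar2 in 6 of 8 cases each (adjusted p up to 0.0699 and 0.0918) and that of Ptpn2 in 7 of 8 (up to 0.108). In KO none of the genes in these lists passed with IL-6.

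The profiles of the members over the 8 libraries resembled each other to different degrees. Pearson's r of a member with the mean standardized profile of the other 9 was 0.995 for H2-D1, 0.990 for Psmb9, 0.979 for Tap1 and 0.978 for Psmb8, and lowest for H2-K1 (0.854), Tapbp (0.853) and B2m (0.618). The 5 genes outside the 10 most like the mean profile were Irf7, an interferon-induced transcription factor (r = 0.997), Cd59b, an inhibitor of complement (0.996), Oas1a, an antiviral enzyme (0.994), AW011738 (0.994) and Phc3, a polycomb protein (0.994). Irf7 was at 81.1 and 72.1 FPKM in IL-6-treated KO, 79.9 and 82.0 in untreated KO, 175 and 136 in IL-6-treated WT, and 214 and 199 in untreated WT. Cd59b was very low, at 0 to 0.191 FPKM in KO libraries and 0.694 to 1.55 in WT libraries. The KO against WT difference of Phc3 was small, at -0.37 without IL-6 and -0.29 with it. Since the libraries share 4 groups and most genes differ between genotypes, high values are common: 1194 of 13683 genes had an r over 0.95.

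Of the 10 members, 7 lie in the MHC on chromosome 17, between 33915899 and 35267499. A set of 82 other protein-coding genes annotated there left out names starting with H2-K, H2-D, H2-Q, H2-T or H2-M. That rule drops class I chains, and also class II genes such as H2-DMa and H2-DMb1. Of these 82 genes, 50 were tested, a set chosen after the values were seen. Without IL-6 21 of them were higher and 10 lower in KO (median 0.12), and with IL-6 15 were higher and 14 lower (median 0.06). Of all genes, 36.4% were higher and 34.5% lower without IL-6, and 36.9% and 34.8% with it.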

How the data were processed

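RNA from the 8 libraries was isolated with an RNeasy kit and libraries were prepared by TruSeq stranded mRNA chemistry, per the labels' protocols. The deposited values are FPKM per transcript, made by the authors with HISAT2 and Cufflinks 2.2.1 on GRCm38.p6, per the submitters' processing notes. Whether counting used strand, and which annotation was used, is not given in the sources used here. Cufflinks estimates how fragments divide among transcripts and near-identical genes, so values of close copies depend on that estimate.

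FPKM was summed over 142869 transcripts to 55358 genes. Depth was fitted to low values, of which 92.5 to 93.9% then lay within 0.1 of a whole fragment, and no count test was run. The 13693 genes that reached 1 FPKM in 2 or more of the 8 libraries were fitted on log2(FPKM + 1) with limma 3.58.1 in R 4.3.3, as 4 group means over all 8 libraries with an intensity trend and 4 residual degrees of freedom. Calls are Benjamini-Hochberg adjusted p below 0.05 over all genes tested. The comparisons were KO against WT with and without IL-6, IL-6 against none in KO and in WT, and the difference between the IL-6 responses. The script was tested on simulated data.

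Alternatives changed the normalization, filter, pseudocount, trend, replicate block or samples fitted, or left out each library. Positions and transcript types came from GENCODE M21, and promoter windows from RefSeq, matched by symbol. The members and gene lists were chosen with earlier results of these data known. From each list up to 4 genes with the smallest p per comparison were named, and the 5 genes most like the members by Pearson's r with their mean profile. Other genes are said to be chosen after their values were seen, or stand beside a count of 5 or fewer. One gene of the lists enters the counts and is not reported here by itself.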

Additional observations from a re-analysis of the deposited data

How the results depend on the processing

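Of the genotype differences of the 10 members, 173 of 180 values without IL-6 and 161 of 180 with it kept their direction and side of the threshold over 18 alternatives. The values that turned sign were all of B2m, without IL-6 under quantile normalization (0.092) and with IL-6 under quantile normalization (0.37), equal total FPKM (0.092) and median-ratio scaling (0.00036), with a range of -0.14 to 0.13 over left-out libraries. The count of genes called with IL-6 in KO was 7 with no filter, 5 with a filter of 5 FPKM, 0 with only those groups fitted and 0 to 6 over left-out libraries. In WT it was 938 with only those groups and 1143 to 1777 over left-out libraries. Members called there were 1 with no trend, 0 with no filter or only those groups, and 0 to 5 over left-out libraries. Genes whose IL-6 responses differed were 521 with no filter and 397 to 528 over left-out libraries, where 0 to 1 members passed. Over left-out libraries, IL-6 in KO gave -0.10 to 0.090 for H2-K1, -0.052 to 0.093 for H2-D1, -0.17 to 0.090 for B2m, -0.0071 to 0.045 for Tap2, -0.059 to 0.12 for Psmb8 and -0.079 to 0.058 for Nlrc5. IL-6 in WT gave -0.34 to 0.099 for Tap1, -0.023 to 0.17 for Tap2, -0.12 to 0.076 for Tapbp, -0.27 to 0.053 for Psmb8, -0.0015 to 0.13 for Psmb10 and -0.11 to 0.049 for Nlrc5. The difference between responses gave -0.018 to 0.42 for Tap1, -0.15 to 0.042 for Tap2, -0.12 to 0.079 for Tapbp (0.017 under quantile normalization, 0.024 at equal total FPKM), -0.020 to 0.30 for Psmb8 and -0.060 to 0.10 for Nlrc5. The log2 ratios with IL-6 ranged, KO against WT, from -1.61 to -1.18 for Psmb8 over Psmb5, -1.95 to -1.47 for Psmb9 over Psmb6 and -1.26 to -1.04 for Psmb10 over Psmb7, and in WT, IL-6 against none, from -0.44 to -0.0031, -0.61 to -0.12 and 0.0010 to 0.22. That last set of ranges was chosen after seeing the data. Deviations of same-numbered libraries correlated at -0.097 to 0.055 across genes. No pairing by library number was seen, but such correlations cannot exclude a pairing that touches few genes. With the replicate block 564 genes differed between responses, 1696 were called with IL-6 in WT and 2 in KO, 9685 between genotypes with IL-6 and 9566 without, and 2, 7 and 9 members were called with IL-6 in WT, between genotypes with IL-6 and without. The cause of these shifts was not tested. Each group had 2 libraries, and the smallest difference such a design can detect was not computed.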
